A study of Homo sapiens with 6 samples.

Results

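The genes described here encode 4 C/EBP factors (CEBPA, CEBPB, CEBPD and CEBPG), the RUNX factors RUNX1, RUNX2 and RUNX3 with their partner CBFB, and the paired repressors BHLHE40 and BHLHE41. They were chosen by name as regulators of the mesenchymal state of glioblastoma, and all 10 were present among the 27192 genes of the count tables. The series asks which RNAs of U87, a line grown from a human glioblastoma, respond to knockdown of the long noncoding RNA LINC00152. The siLINC00152 libraries came from U87 cells given 2 siRNAs together, both directed at LINC00152, and the siGL2 libraries from U87 cells transfected with siGL2, a nonspecific control siRNA, with 3 libraries, A, B and C, in each group. Both groups received 2 transfections 24 hours apart with the same lipid reagent, and RNA was taken 24 hours after the later one. The 2 siRNAs were only used together, so an effect of either one cannot be told apart from that of the other.

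C/EBP proteins are basic leucine zipper factors that bind DNA as dimers with each other or with ATF proteins, and CEBPB is known as a driver of the acute-phase and inflammatory response. RUNX proteins bind DNA through their Runt domain, and CBFB, which does not itself touch DNA, raises their affinity and stability. BHLHE40 and BHLHE41 are basic helix-loop-helix repressors that act at E-boxes, feed back on the circadian clock and are induced by hypoxia. In glioblastoma, CEBPB and STAT3 are known to head a network of factors, RUNX1, FOSL2 and BHLHE40 among them, that drives the mesenchymal expression programme.

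Promoter sequences of 300 bases, from 250 bases before to 50 after an annotated start, were matched in RefSeq (GRCh38.p14) for 8 of the 10 genes and gave 12 windows, because several genes have more than 1 start. Both strands were searched for letter patterns modelled on the factors' own sites: TTGCNCAA for C/EBP dimers, TTGCATCA for C/EBP with ATF, TGNGGT for RUNX and CACGTG for the E-box of BHLHE40 and BHLHE41. TGNGGT is a loose pattern, since its N takes any base, so that TGAGGT and TGGGGT count as matches beside TGTGGT and TGCGGT. The 3 windows printed here carry matches to the letters of their own family and are shown because BHLHE40 passed the test of the knockdown while BHLHE41 and RUNX2 did not; matches are in capitals, 5′ to 3′ on the gene's strand. They are BHLHE40 at chr3:4979187-4979486 on the plus strand, BHLHE41 at chr12:26124988-26125287 on the minus strand, and the upstream start of RUNX2 at chr6:45328080-45328379 on the plus strand.
BHLHE40: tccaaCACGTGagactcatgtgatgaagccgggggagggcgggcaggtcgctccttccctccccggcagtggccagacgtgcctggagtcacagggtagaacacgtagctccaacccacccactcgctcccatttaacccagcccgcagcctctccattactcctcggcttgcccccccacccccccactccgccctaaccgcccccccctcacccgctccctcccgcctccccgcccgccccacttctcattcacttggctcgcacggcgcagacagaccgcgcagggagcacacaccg
BHLHE41: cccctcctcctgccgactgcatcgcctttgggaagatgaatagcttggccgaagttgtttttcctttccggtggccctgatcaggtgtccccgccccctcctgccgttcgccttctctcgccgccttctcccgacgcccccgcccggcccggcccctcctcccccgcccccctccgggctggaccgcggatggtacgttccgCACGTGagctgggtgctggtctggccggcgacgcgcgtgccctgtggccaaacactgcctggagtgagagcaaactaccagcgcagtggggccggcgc
RUNX2: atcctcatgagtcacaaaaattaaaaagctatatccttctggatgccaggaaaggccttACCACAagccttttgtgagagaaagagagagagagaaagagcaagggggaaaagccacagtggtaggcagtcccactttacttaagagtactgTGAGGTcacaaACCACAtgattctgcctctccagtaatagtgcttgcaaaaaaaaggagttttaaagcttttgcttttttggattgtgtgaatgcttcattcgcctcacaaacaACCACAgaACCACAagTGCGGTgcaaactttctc
The BHLHE40 and BHLHE41 windows each held CACGTG 1 time, beginning at base −245 from the start in BHLHE40 and at −48 in BHLHE41. Of 35116 promoter windows of this length, 7.26% held these letters, and none of the other 10 windows of these genes did. The RUNX2 window held TGNGGT 6 times, 3 of them after the start, with no overlap between matches. TGNGGT was common, in 43.2% of all windows and in 4 of the 12 (both RUNX2 windows and 1 each of RUNX3 and CEBPB, none of RUNX1, matched at its downstream start alone), but 6 or more matches were found in 0.0456% of all windows. The cut of 6 equals the count in the upstream RUNX2 window, the most of the 12, so this share is a description and not a test. That window was 42.7% G and C, against 66.3% to 80.7% in the others of the 12, and the share was not matched for this. The CEBPB match and that in the downstream RUNX2 window read TGGGGT. TTGCATCA was in 1 of the 12 windows, that of the downstream start of CEBPG, and in 0.866% of all windows. TTGCNCAA was in none of the 12 and in 2.61% of all windows. A match describes these letters and does not show that a factor binds there.

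Total counts were 41963120 to 43713662 in the siLINC00152 libraries and 42139419 to 46234763 in the siGL2 libraries. LINC00152 fell to 2.67 ± 0.108 CPM (a gene's counts relative to the library size, which was corrected by the TMM method) in siLINC00152 libraries, against 15.2 ± 1.18 CPM in siGL2 libraries (SD, n = 3 each). That is a log2 fold change of −2.51 ± 0.09 (SE; edgeR adjusted p = 4.55e-15). The annotated sequence of LINC00152 is partly shared, with 20.7% of its 75-base pieces found again in other genes, MIR4435-2HG among them. How far this affects its counts, and whether the siRNAs also match those genes, was not tested. Of markers of astrocytes and glioma, VIM and CD44 were abundant (6866 and 2179 CPM in siLINC00152 libraries, 8977 and 2696 CPM in siGL2 libraries), whereas the astrocyte gene GFAP averaged 0.104 CPM in siLINC00152 libraries and 0.154 CPM in siGL2 libraries, and AQP4 had 0 counts in every library. Of that list of 8 markers, 4 averaged at least 1 CPM, and the summed level of all 8 was 8924 to 9223 CPM in siLINC00152 libraries and 11370 to 12000 CPM in siGL2 libraries. Of 7 macrophage and microglia markers, 2 averaged at least 1 CPM. These were CD68 (299.3 CPM in siLINC00152 libraries, 332.5 CPM in siGL2 libraries) and CSF1R (13.3 CPM in siLINC00152 libraries, 22.6 CPM in siGL2 libraries). The summed level of the 7 was 300.4 to 326 CPM in siLINC00152 libraries and 354 to 358 CPM in siGL2 libraries. Of the others, AIF1 had 0 counts in every library and PTPRC had at most 4 counts in any library. The part of these marker levels in the results was not tested. Of the siGL2 libraries, A stood apart in its counts, with a chi-square per degree of freedom of 11.5 against B and 14.5 against C, whereas B against C gave 3.03 and the siLINC00152 pairs gave 3.20 to 6.11. Without siGL2 library A, 3 of the 8 tested regulators rose and 2 fell, as with it, and the log2 fold changes were 0.73 in BHLHE40, 0.63 in RUNX1, 0.58 in CEBPD, −0.48 in CEBPB and −0.32 in CBFB. Whether replicates were separate cultures is not stated, so p-values measure the spread between these libraries, which may be technical. In bulk RNA, fewer cells of a type and less RNA per cell cannot be told apart.

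After knockdown, BHLHE40, RUNX1 and CEBPD rose, CEBPB and CBFB fell, and RUNX2, BHLHE41 and CEBPG did not pass the test. CEBPA and RUNX3 were at the floor of detection in both groups and were not tested. Thus within each of the 3 families at least 1 gene passed the test beside a relative that did not. Of the 8 tested genes, 5 passed (62.5%), against 64.3% of all 14078 tested genes (an edgeR quasi-likelihood p under 0.05 once adjusted over all tested genes by Benjamini-Hochberg), so the share called was near the background. By direction, 3 of the 8 rose and 2 fell, against 32.2% of all tested genes that rose and 32.2% that fell. Of the 8, 1 passed and differed by at least 1.5-fold, against 20.0% of all tested genes. The median log2 fold change was 0.03 over the 8 genes and 0.00 over all tested genes.

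**Figure D1:**
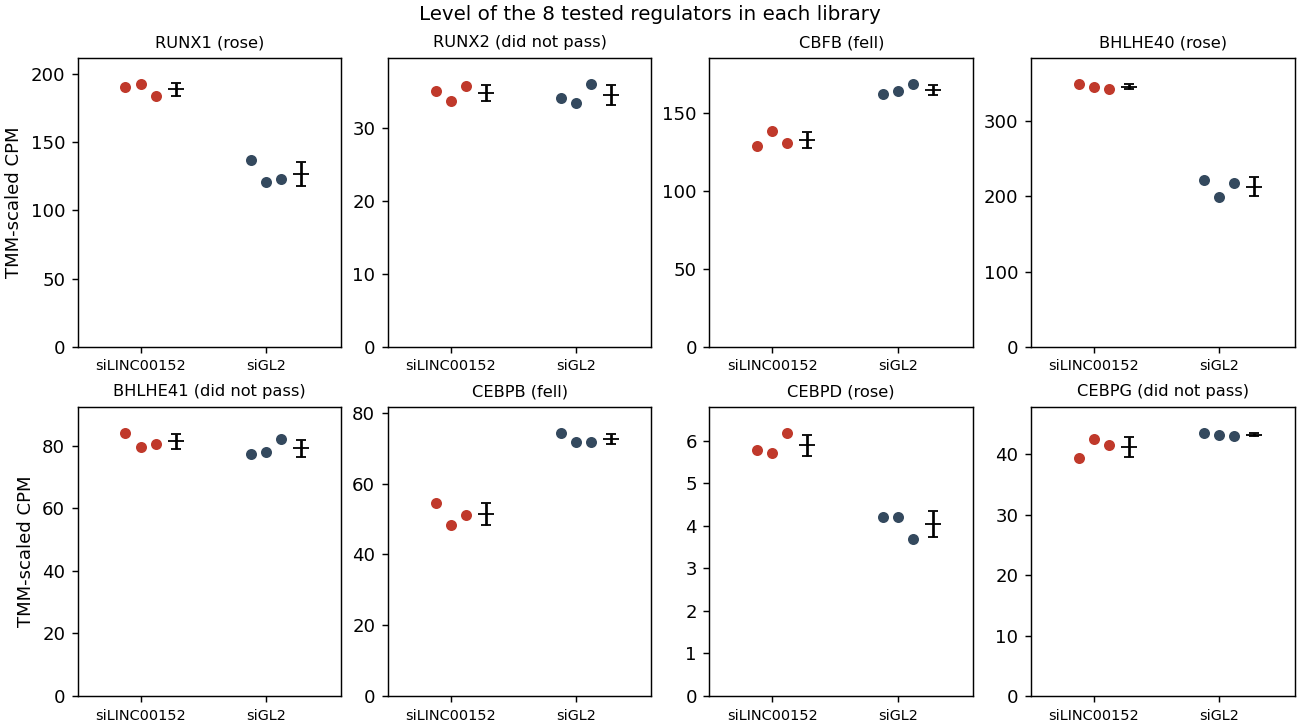
Each panel shows 1 gene, with its level in TMM-scaled CPM on a vertical axis that starts at 0, 3 siLINC00152 libraries at the left and 3 siGL2 libraries at the right. Points are libraries A, B and C, and the bar beside them is the mean ± SD (n = 3). BHLHE40 lies at 342 to 349 CPM in siLINC00152 libraries and at 199 to 222 CPM in siGL2 libraries, while the groups of RUNX2 and BHLHE41 overlap.

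RUNX1, a master regulator of blood formation that is also active in glioma, rose 1.49-fold. RUNX1 had 190.0, 192 and 183 CPM in siLINC00152 libraries A, B and C, against 137, 120.4 and 123 CPM in siGL2 libraries A, B and C (counts of 7801, 8078 and 7806 against 5924, 5201 and 5805). Every siLINC00152 library was above every siGL2 library, and siGL2 library A was the highest of its group. The log2 fold change of RUNX1 was 0.57 ± 0.05 (SE; 95% confidence interval 0.47 to 0.68; edgeR adjusted p = 2.98e-09). The gene lies at chr21:34787801-36004667 (GRCh38, minus strand, protein coding), and 17 transcripts are annotated, which gene counts do not separate.

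RUNX2, the master regulator of bone formation, showed no difference past the test. RUNX2 had 35.1, 33.7 and 35.8 CPM in siLINC00152 libraries, against 34.2, 33.5 and 36.0 CPM in siGL2 libraries. The groups overlapped fully, and the log2 fold change of RUNX2 was 0.01 ± 0.05 (SE), with a 95% confidence interval of −0.10 to 0.12 (edgeR adjusted p = 0.851). RUNX2 lies at chr6:45328157-45664349 (plus strand). RUNX3, the family member best known in lymphocytes, had 1, 2 and 0 counts in siLINC00152 libraries and 0 counts in each siGL2 library, which allows up to 3 counts, or 0.0634 to 0.0694 CPM, per siGL2 library (counting error only). RUNX3 (chr1:24899511-24965121, minus strand) therefore gives no fold change at this depth.

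CBFB, the partner shared by all RUNX proteins, fell 1.24-fold while RUNX1 rose. CBFB had 129, 138 and 131 CPM in siLINC00152 libraries, against 162, 164 and 168 CPM in siGL2 libraries. The groups did not overlap, and the log2 fold change of CBFB was −0.31 ± 0.04 (SE; edgeR adjusted p = 4.02e-06). CBFB lies at chr16:67029116-67101058 (plus strand). Per kilobase of annotated exon, the summed reads of the 3 RUNX genes stood to those of CBFB at 0.529, 0.492 and 0.510 in siLINC00152 libraries, against 0.330, 0.297 and 0.302 in siGL2 libraries. These ratios do not depend on how libraries are scaled to each other, and the groups did not overlap. With the longest annotated transcript as the length, the means were 0.754 ± 0.0259 in siLINC00152 libraries and 0.444 ± 0.0288 in siGL2 libraries (SD, n = 3 each).

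BHLHE40 rose most, 1.62-fold, and had the highest level of the 10 genes per kilobase in both groups. BHLHE40 had 349, 346 and 342 CPM in siLINC00152 libraries, against 222, 199 and 218 CPM in siGL2 libraries. Every siLINC00152 library was above every siGL2 library, with an SD of 3.31 CPM in siLINC00152 libraries and 12.2 CPM in siGL2 libraries. The log2 fold change of BHLHE40 was 0.70 ± 0.05 (SE; 95% confidence interval 0.60 to 0.80; edgeR adjusted p = 4.78e-11), at percentile 92.8 of all tested genes. BHLHE40 lies at chr3:4979116-4985323 (plus strand). BHLHE40-AS1, an antisense RNA whose exons cover 0.1% of the exonic bases of BHLHE40, rose too, with 27, 29 and 27 counts in siLINC00152 libraries against 10, 7 and 17 in siGL2 libraries (log2 fold change 1.37 ± 0.29, SE; edgeR adjusted p = 3.66e-04).

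BHLHE41, whose promoter window carries the same E-box letters, did not pass the test. BHLHE41 had 83.9, 79.4 and 80.6 CPM in siLINC00152 libraries, against 77.2, 77.9 and 82.1 CPM in siGL2 libraries. The groups overlapped, and the log2 fold change of BHLHE41 was 0.04 ± 0.05 (SE), with a 95% confidence interval of −0.06 to 0.14 (edgeR adjusted p = 0.482). BHLHE41 lies at chr12:26120026-26125127 (minus strand), and 4.1% of its exonic bases overlap SSPN on the opposite strand.

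The C/EBP genes went different ways. CEBPB fell 1.41-fold, with 54.5, 48.4 and 51.1 CPM in siLINC00152 libraries, against 74.2, 71.7 and 71.7 CPM in siGL2 libraries. Every siLINC00152 library was below every siGL2 library, and the log2 fold change of CEBPB was −0.50 ± 0.05 (SE; 95% confidence interval −0.60 to −0.39; edgeR adjusted p = 3.18e-08). CEBPB is a gene of 1 exon at chr20:50190734-50192689 (plus strand). Of its bases, 11.8% overlap CEBPB-AS1 on the opposite strand, and whether the counting used strand is not stated, although the library kit keeps it. CEBPB-AS1 had 1.62 ± 0.127 CPM in siLINC00152 libraries and 1.40 ± 0.115 CPM in siGL2 libraries (SD, n = 3 each), with a log2 fold change of 0.21 ± 0.16 (SE) that did not pass (edgeR adjusted p = 0.26).

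CEBPD, which is known to be induced with CEBPB by inflammatory signals, rose 1.46-fold from a low level. CEBPD had 5.80, 5.71 and 6.18 CPM in siLINC00152 libraries (238, 240 and 263 counts), against 4.22, 4.21 and 3.70 CPM in siGL2 libraries (183, 182 and 175 counts). The groups did not overlap, and the log2 fold change of CEBPD was 0.55 ± 0.10 (SE; edgeR adjusted p = 4.34e-05), with the widest standard error of the 8 genes. CEBPD lies at chr8:47736909-47739086 (minus strand). CEBPG, a small family member without an activation domain that pairs with other C/EBP and ATF proteins, had 39.4, 42.6 and 41.6 CPM in siLINC00152 libraries, against 43.5, 43.2 and 43.0 CPM in siGL2 libraries. Here the groups did not overlap, yet the log2 fold change of CEBPG, −0.07 ± 0.05 (SE; 95% confidence interval −0.17 to 0.03), did not pass (edgeR adjusted p = 0.23). When library size alone set the scale, CEBPG passed at −0.14 ± 0.05 (SE; edgeR adjusted p = 0.0209). CEBPG lies at chr19:33373330-33382686 (plus strand).

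CEBPA, a driver of myeloid and fat cell differentiation, had 0, 0 and 1 counts in siLINC00152 libraries and 0, 2 and 0 counts in siGL2 libraries. Both groups were under the floor of 3 counts per library, so no fold is given. CEBPA lies at chr19:33299934-33302564 (minus strand), and genes of the opposite strand cover 43.4% of its exonic bases. Across the 8 tested genes, the groups did not overlap in 6, against 67.7% of all tested genes.

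**Figure D2:**
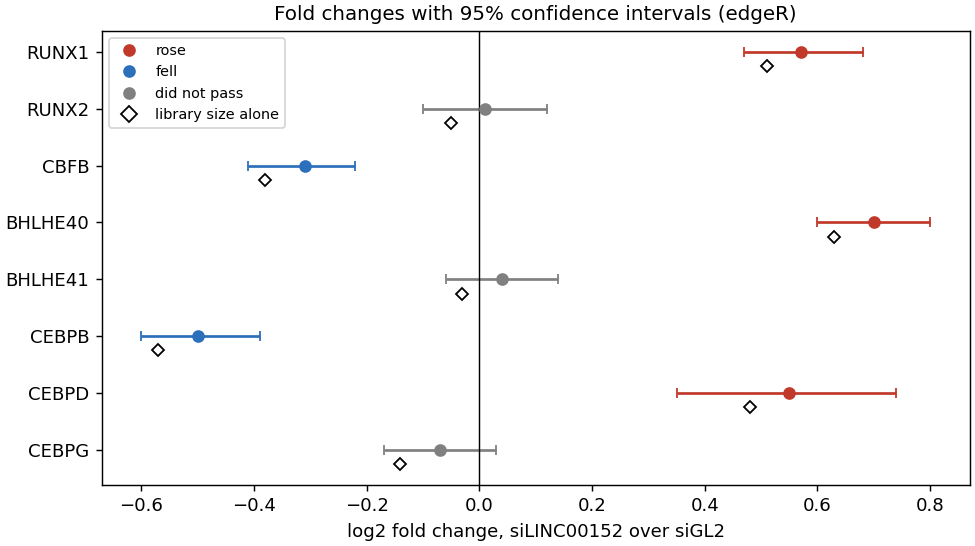
Points give the log2 fold change of siLINC00152 over siGL2 on the horizontal axis for each of the 8 tested genes, with 95% confidence intervals, and open diamonds give the value when library size alone sets the scale. BHLHE40, RUNX1 and CEBPD lie at 0.55 to 0.70, CEBPB at −0.50 and CBFB at −0.31, and the intervals of RUNX2, BHLHE41 and CEBPG include 0.

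Levels of different genes were compared per kilobase of annotated exon (CPM per kilobase). In siLINC00152 libraries the order was BHLHE40 (90.0 ± 0.862), CBFB (32.1 ± 1.20), CEBPB (26.3 ± 1.57), BHLHE41 (20.6 ± 0.584), RUNX1 (12.1 ± 0.299), CEBPG (9.34 ± 0.371), RUNX2 (4.26 ± 0.132) and CEBPD (2.71 ± 0.114; SD, n = 3). In siGL2 libraries it was BHLHE40 (55.4 ± 3.17), CBFB (39.9 ± 0.788), CEBPB (37.1 ± 0.744), BHLHE41 (20.0 ± 0.671), CEBPG (9.80 ± 0.0478), RUNX1 (8.13 ± 0.560), RUNX2 (4.22 ± 0.161) and CEBPD (1.86 ± 0.137). Neighbours in these orders did not overlap between libraries of a group, but RUNX1 exchanged places with CEBPG between the groups. The place of RUNX1 depends on the length used. With its longest annotated transcript (7274 bases) in place of all annotated exonic bases (15574), RUNX1 stood at 25.9 ± 0.639 in siLINC00152 libraries, level with CEBPB within their spread, and at 17.4 ± 1.20 in siGL2 libraries, above CEBPG.

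The make-up of each family differed between the 3 siLINC00152 libraries and the 3 siGL2 libraries. RUNX1 gave 74.0%, 74.96% and 72.9% of RUNX reads per kilobase in siLINC00152 libraries, against 67.8%, 65.4% and 64.2% in siGL2 libraries, with nearly all the rest from RUNX2. BHLHE40 gave 81.0%, 81.7% and 81.4% of the reads per kilobase of its pair in siLINC00152 libraries, against 74.7%, 72.4% and 73.2% in siGL2 libraries. Among C/EBP genes CEBPB remained the most abundant per kilobase, at 70.6%, 66.8% and 68.1% in siLINC00152 libraries, against 76.3%, 75.7% and 76.2% in siGL2 libraries. CEBPD gave 7.07% ± 0.321 of C/EBP reads per kilobase in siLINC00152 libraries and 3.81% ± 0.245 in siGL2 libraries, and CEBPG gave 24.4% ± 1.73 in siLINC00152 libraries and 20.1% ± 0.260 in siGL2 libraries (SD, n = 3 each). The groups did not overlap in any of these shares, which were not tested. For comparison, the groups did not overlap in the CPM of 67.7% of all tested genes. The shares within a family depend on each other and restate the levels of the single genes, so they are not separate results. CEBPG itself did not pass the test, and its larger share stands beside the lower level of CEBPB.

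**Figure D3:**
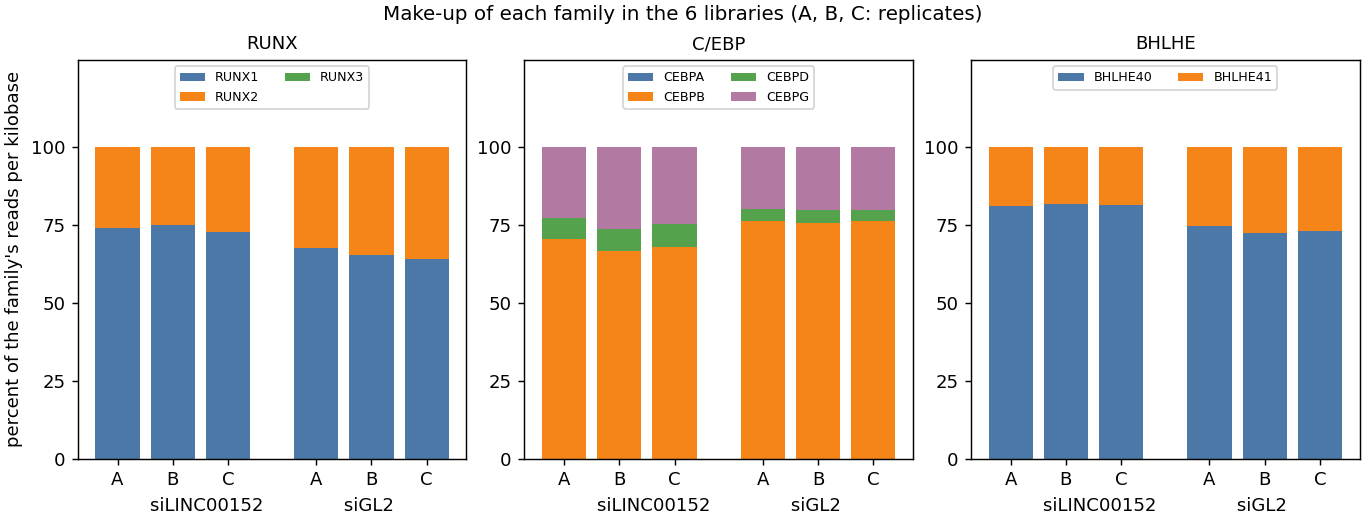
Stacked bars give each gene's percentage of its family's reads per kilobase of annotated exon, 1 bar per library, siLINC00152 at the left and siGL2 at the right of each panel. RUNX1 and BHLHE40 take larger shares in siLINC00152 libraries (means of 74.0% and 81.4%) than in siGL2 libraries (65.8% and 73.4%), CEBPB takes a smaller one, and RUNX3 and CEBPA are too scarce to be seen.

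Other regulators of the mesenchymal state were mixed. Here and in the lists that follow, a call is an edgeR adjusted p under 0.05, and values after a gene are log2 fold changes of siLINC00152 over siGL2 ± SE. Of 26 tested genes of that list 11 rose, 8 fell and 7 did not pass (73.1% called, against 64.3% of all tested genes), with a median log2 fold change of 0.07. STAT3, the partner of CEBPB at the head of the known network, rose by 0.67 ± 0.05 on the log2 scale (SE), to 168 ± 5.89 CPM in siLINC00152 libraries, against 106 ± 5.73 CPM in siGL2 libraries (SD, n = 3 each; edgeR adjusted p = 2.15e-10). The leucine zipper factor gene MAF rose by 1.81 ± 0.09, the NF-kB subunit gene NFKB2 by 0.65 ± 0.06 and the zinc finger gene ZNF217 by 0.49 ± 0.05, whereas LITAF fell by 0.52 ± 0.05 and the cell cycle factor gene FOXM1 by 0.43 ± 0.04. Genes of the opposite strand cover 15.9% of the exonic bases of FOXM1. The transcription factor genes ZEB1 (−0.45 ± 0.05), PRRX1 (−0.38 ± 0.05), SNAI2 (−0.32 ± 0.05) and TWIST1 (−0.20 ± 0.07), known from epithelial-mesenchymal transition, fell, TWIST1 with an edgeR adjusted p of 0.013 that was 0.0786 without siLINC00152 library B. FOSL2, an AP-1 subunit of the same network, rose by 0.41 ± 0.06, and ZBTB18, a repressor known to oppose it, fell by 0.31 ± 0.06. FOSL1, the paralogue of FOSL2 in this list, fell by 0.15 ± 0.04 (edgeR adjusted p = 0.00551). FOSL1, FOSL2, ZBTB18, SNAI2 and TWIST1 were named after their values were seen. Thus of the factors named above as drivers in that network, STAT3, RUNX1, BHLHE40 and FOSL2 rose and CEBPB fell, while the whole list was mixed.

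Partners, cofactors and degraders of the factors were more often higher than lower. In that list of 30 tested genes there were 15 that rose and 7 that fell (73.3% called, against 64.3% of all tested genes, 32.2% in each direction), and the median log2 fold change was 0.16. The 4 Groucho corepressor genes of the list, whose family binds RUNX proteins, differed. TLE3 (0.68 ± 0.05) and TLE1 (0.45 ± 0.05) rose, and TLE4 did not pass (0.13 ± 0.06, edgeR adjusted p = 0.0654), though it passed without siGL2 library A (0.17, edgeR adjusted p = 0.0215). TLE2 fell (−1.47 ± 0.42, edgeR adjusted p = 0.00481) on 2, 5 and 6 counts in siLINC00152 libraries against 13, 11 and 15 in siGL2 libraries, and did not pass with DESeq2 (adjusted p = 0.0508). ID2, TLE2 and TLE4 were named after their values were seen. ID1 and ID3 encode helix-loop-helix proteins without a DNA-binding region that sequester other helix-loop-helix factors. ID1 fell by 1.15 ± 0.05, to 109 ± 6.33 CPM in siLINC00152 libraries, against 243 ± 17.8 CPM in siGL2 libraries, and ID3 fell by 0.70 ± 0.06, whereas the related ID2 rose (0.26 ± 0.05), to 100.9 ± 1.90 CPM in siLINC00152 libraries, against 84.0 ± 6.69 CPM in siGL2 libraries. Of genes that act on C/EBP proteins, the pseudokinase genes TRIB1 (0.53 ± 0.06) and TRIB2 (0.43 ± 0.05) rose. Both are known to send C/EBP-alpha to degradation, but its gene CEBPA was at the floor of detection. The related TRIB3 did not pass at −0.27 ± 0.16 (edgeR adjusted p = 0.158). The ubiquitin ligase gene FBXW7 (0.40 ± 0.06) rose, as did CELF1 (0.44 ± 0.05), an RNA-binding protein known to act on CEBPB translation. RFWD2, the ligase that works with TRIB proteins, rose by 0.19 ± 0.06 (edgeR adjusted p = 0.00518), but did not pass with library size alone (0.12, edgeR adjusted p = 0.058). Of other degrader genes of the list, SMURF1 (0.43 ± 0.05) and SIAH2 (0.21 ± 0.06) rose. SMURF2 did not pass at 0.10 ± 0.05 (edgeR adjusted p = 0.0766). An opposite-strand gene covers 11.7% of the exonic bases of SMURF1. Among dimer partners ATF4 fell by 0.25 ± 0.05 and ATF5 by 0.35 ± 0.05, and DDIT3 stood at −0.01 ± 0.07 and did not pass (edgeR adjusted p = 0.867). Genes of the opposite strand cover 21.2% of the exonic bases of ATF5 and 31.6% of those of DDIT3.

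Known targets of C/EBP factors fell more often than they rose. Among 20 tested targets, 9 fell and 3 rose (60.0% called, near the 64.3% of all tested genes, of which 32.2% rose and 32.2% fell), and the median log2 fold change was −0.18, while 10 further genes of the list had too few counts. The cytokine genes IL1B (−1.93 ± 0.07, SE) and CSF3 (−1.80 ± 0.07), the pentraxin gene PTX3 (−1.30 ± 0.07), the mitochondrial superoxide dismutase gene SOD2 (−1.12 ± 0.05) and CHI3L1 (−0.61 ± 0.07), a secreted marker of mesenchymal glioblastoma, fell. As background, several of these genes are also targets of NF-kB. CXCL8 rose by 0.53 ± 0.08, and CD14 (1.71 ± 0.43) and IL1RN (0.87 ± 0.33) rose at levels under 1 CPM. The groups of IL1RN overlapped, and it did not pass with DESeq2 (adjusted p = 0.106) or without siGL2 library B or C or siLINC00152 library A. CD14, IL1RN and IL6 were named after their values were seen. IL6, a classical target, did not pass at −0.13 ± 0.12 (edgeR adjusted p = 0.328), and opposite-strand genes cover 20.7% of its exonic bases.

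Known targets of RUNX factors were evenly split. Among 23 tested targets, 10 rose and 9 fell (82.6% called, against 64.3% of all tested genes), and the median log2 fold change was −0.08. SPP1, which encodes osteopontin, fell by 1.79 ± 0.06 (SE), to 53.4 ± 1.51 CPM in siLINC00152 libraries, against 185 ± 14.6 CPM in siGL2 libraries (SD, n = 3 each; edgeR adjusted p = 3.94e-16). The receptor gene CSF1R, also among the macrophage and microglia markers above, fell by 0.76 ± 0.06. The type I collagen genes COL1A2 (0.98 ± 0.05) and COL1A1 (0.71 ± 0.05), IGFBP3 (1.29 ± 0.05) and the hormone gene PTHLH (1.35 ± 0.08) rose, the last with 10.4% of its exonic bases covered by an opposite-strand gene.

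Targets of BHLHE40 and BHLHE41 and other clock genes went both ways. This list had 25 tested genes, of which 11 rose and 8 fell (76.0% called, against 64.3% of all tested genes), and its median log2 fold change was 0.12. The clock repressor gene CRY2 rose by 1.0 ± 0.06 (SE), to 27.7 ± 1.59 CPM in siLINC00152 libraries, against 13.8 ± 0.586 CPM in siGL2 libraries (SD, n = 3 each; edgeR adjusted p = 1.97e-11). The nuclear receptor gene RORA (0.75 ± 0.06), the stress gene DDIT4 (0.81 ± 0.06), the lipid regulator gene SREBF1 (0.73 ± 0.06), the repressor gene NFIL3 (0.70 ± 0.06) and NR1D1 (0.54 ± 0.05) rose too, whereas PER3 (−0.75 ± 0.06), CRY1 (−0.45 ± 0.06), the paralogue of CRY2, and the activator gene CLOCK (−0.35 ± 0.05) fell. CRY1 had 17.3 ± 0.429 CPM in siLINC00152 libraries and 23.7 ± 0.463 CPM in siGL2 libraries (SD, n = 3 each; edgeR adjusted p = 7.14e-07). Opposite-strand genes overlap 41.2% of the exonic bases of DDIT4, 16.7% of those of PER3 and 10.1% of those of DBP. PER1 (0.51 ± 0.06) and PER2 (0.31 ± 0.05), E-box genes, rose, and DBP, a clock output gene, did not pass at 0.08 ± 0.15 (edgeR adjusted p = 0.645); PER1, PER2, DBP, CRY1 and CLOCK were named after their values were seen.

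Genes that mark mesenchymal glioblastoma were higher more often than lower, with 16 of 29 tested genes rising and 8 falling (82.8% called, against 64.3% of all tested genes) and a median log2 fold change of 0.16. COL5A1, ITGA5, LOX, CAV1, TGFBI and COL1A2 rose by 0.84 to 2.27, whereas VIM fell by 0.39 ± 0.04 (SE), CD44 by 0.31 ± 0.04 and CHI3L1 by 0.61 ± 0.07. VIM and CD44 were named after their values were seen, and opposite-strand genes cover 24.4% of the exonic bases of VIM. Of 20 proneural genes only 10 had enough counts, of which CHD7 rose (0.24 ± 0.06), PDGFRA (−0.59 ± 0.11) and TCF4 (−0.16 ± 0.05) fell and 7 did not pass (30.0% called, against 64.3% of all tested genes). Of the 75-base stretches of PDGFRA, 14.7% also occur in another gene. None of these lists was tested as a set, and 10 genes, 9 of them tested, are in 2 lists each: CCL2, CHI3L1, COL1A2, LGALS3, RELB, SERPINA3, SNAI2, TCF4, TIMP1 and TWIST1.

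**Figure D4:**
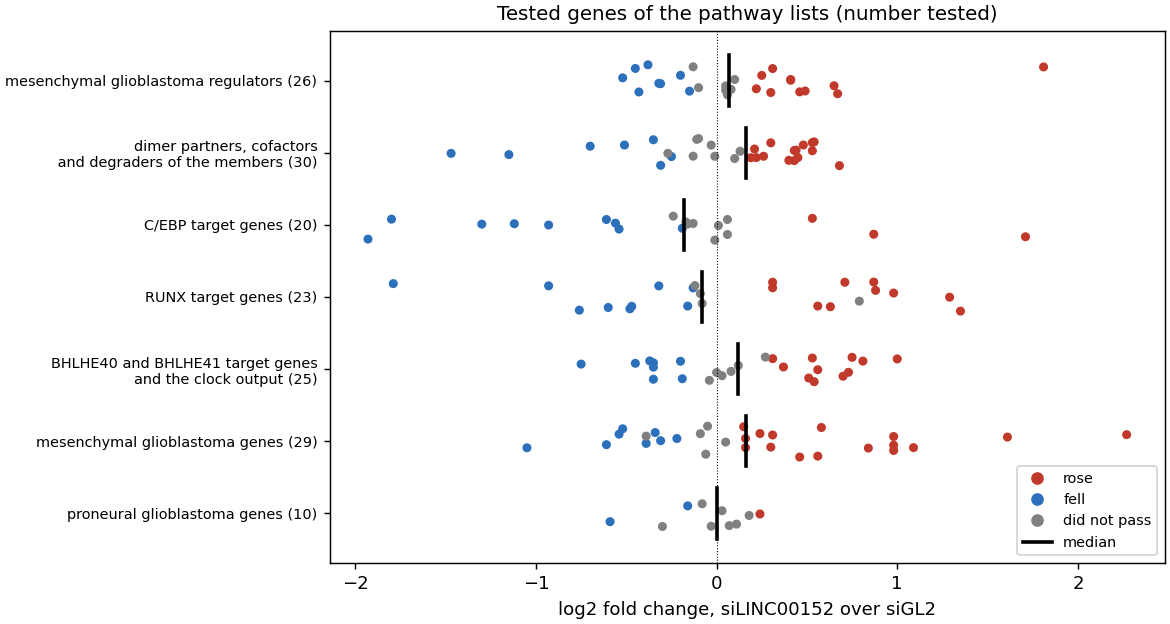
Each point is a tested gene of 1 list, placed by its log2 fold change of siLINC00152 over siGL2 on the horizontal axis and coloured by its call, with a bar at the list's median and the number tested in brackets. Medians run from −0.18 for C/EBP targets to 0.16 for mesenchymal glioblastoma genes and for partners, cofactors and degraders, and rises and falls stand side by side in every list.

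BHLHE40 had the largest change of the 8 tested genes, and the genes of at least 10 CPM whose log2 level ran most like it over the 6 libraries were CEP85L, the growth factor gene TGFB2 and the netrin receptor gene UNC5B, with Pearson's r of 0.9993, 0.9993 and 0.9992. With 2 groups of 3 libraries that differ broadly, such values largely describe the difference between the groups, and 324 of 9231 genes reached r of 0.99. UNC5B rose by 0.86 ± 0.07 on the log2 scale (SE), TGFB2 by 1.35 ± 0.06 and CEP85L by 0.43 ± 0.06.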

How the data were processed

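PolyA RNA of 6 U87 libraries was read as 75-base pairs with a strand-directional kit, per the labels' protocols. The deposited values are raw counts, 1 table per library with a row per gene symbol. The submitters' processing notes list bcl2fastq, HISAT, HTSeq, DESeq and hg38 but no versions; the sources used here give neither the annotation nor the strand setting. Groups and letters come from the titles.

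filterByExpr (minimum count 10, minimum total 15) left 14078 of 27192 genes, which were compared with edgeR 4.0.16 (R 4.3.3, limma 3.58.1): TMM, robust quasi-likelihood test, all 6 libraries, no covariate, two-sided, Benjamini-Hochberg adjustment over all tested genes. Standard errors are the log2 fold change divided by the square root of F. Alternatives were DESeq2 1.42.0, library size alone, no filter, a replicate block and each library left out. Replicates differed by more than sampling noise (chi-square per degree of freedom 3.03 to 14.5). Positions, lengths and overlaps come from GENCODE release 29 (GRCh38, the assembly that hg38 names), and overlap is given where at least 10% in list genes. The edgeR fit was tested on simulated data, and the other steps were not. Python 3.11.15, numpy 2.4.6, pandas 2.3.3 and matplotlib 3.10.9 were used.

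The members and lists were chosen with earlier results of these data known. The rule named all 10 members, LINC00152, up to 8 genes of each list with the smallest p, dimer partners and degraders of a member, and the 3 genes most like the member with the largest change.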

Additional observations from a re-analysis of the deposited data

How the results depend on the processing

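The calls of the 8 tested regulators kept their direction and side of the threshold under DESeq2, no filter and the replicate block, under which 3 rose and 2 fell. With library size alone CEBPG passed at −0.14, so that 3 fell, and the values that did not pass changed sign in RUNX2 (−0.05) and BHLHE41 (−0.03); this scaling moves the median of all tested genes by −0.07. Leaving out each library in turn gave RUNX2 −0.01 to 0.04 without a call, BHLHE40 0.65 to 0.73, RUNX1 0.54 to 0.63, CEBPD 0.48 to 0.58, CEBPB −0.54 to −0.46 and CBFB −0.34 to −0.29. DDIT3, which did not pass, stood at 0.03, 0.02 and 0.01 without siGL2 library B, siLINC00152 library B and siLINC00152 library C, and DBP ranged from −0.07 (without siLINC00152 library C) to 0.19. The number of proneural genes that fell was 1 or 2 when each library was left out, since TCF4 did not pass without siLINC00152 library A (−0.11, edgeR adjusted p = 0.0586). With the replicate letter as a replicate block the log2 fold change of BHLHE40 was 0.70 (adjusted p = 1.8e-08). Same-letter libraries did not deviate together in every pair (correlations of 0.157, −0.104 and 0.211), and not every library went best with its own letter, so the letters are not taken as pairs; over all genes the block gave 4571 that rose and 4584 that fell. With the longest transcript as length, in siLINC00152 and siGL2 libraries, RUNX1 gave 81.4% and 74.7% of its family, RUNX2 18.6% and 25.3%, BHLHE40 82.4% and 74.8%, BHLHE41 17.6% and 25.2%; in siGL2 libraries CEBPB gave 74.96% and CEBPG 21.3%; and RUNX genes over CBFB stood at 0.754 and 0.444. This follows from the lengths themselves. Depth limits CEBPA and RUNX3, for which 0 counts allow up to 3 per library.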
